A study of Mus musculus with 4 samples.

Results

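The dopamine receptor family of the mouse consists of Drd1, Drd2, Drd3, Drd4 and Drd5, and its members were taken by symbol from the count files. All 5 of the 5 symbols had a row among the 32531 gene rows. The samples were dissected nucleus accumbens and dorsal striatum, with 2 input libraries of total RNA per region. All animals were aged over 20 months and belonged to the Drd1-TRAP CP73 line, in which Rpl10a, a protein of the ribosome, is fused to EGFP and expressed from the promoter of Drd1 (Drd1-EGFP/Rpl10a-CP73 in the sample titles). Both regions carry this transgene, so no library without it served as a control. Input is taken here to mean RNA of the whole tissue piece, before any pull-down of tagged ribosomes. In such bulk RNA, fewer cells of a type and less RNA per cell cannot be told apart. Nothing in the labels ties each library to an animal of its own. The p-values therefore reflect the scatter among these 4 libraries alone, and that scatter may be technical.

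Dopamine receptors are receptors of the cell surface that pass their signal to G proteins. The D1 class (Drd1 and Drd5) couples to the stimulatory proteins Gs and Golf and raises cAMP, while the D2 class (Drd2, Drd3 and Drd4) couples to inhibitory G proteins of the Gi and Go type and lowers it. In the striatum most neurons are spiny projection neurons (SPNs), of which the direct pathway neurons carry mainly Drd1 and the indirect pathway neurons mainly Drd2. Drd2 also serves as an autoreceptor on dopamine neurons and is found in cholinergic interneurons, which are known for Drd5 as well. Drd3 is known from the ventral striatum, with the islands of Calleja as its densest site, and Drd4 from cortex and retina.

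Depth ranged from 8478403 to 11849134 counts assigned to genes, and CPM (counts per 1000000 counts) below are scaled by trimmed mean of M values (TMM). The region markers followed the labels. All 5 accumbens markers (Cartpt, Wfs1, Dlk1, Peg10 and Stard5) were called higher in accumbens by the edgeR test (background 0.994% of all tested genes). Of the 4 dorsal striatum markers, Cnr1 and Coch were called lower in accumbens (background 0.290%). Reln and Gpr155 missed the threshold (edgeR adjusted p = 0.0819 and 0.0751). All 4 were lower in accumbens without overlap (background 51.2% for non-overlap in either direction). These lists were drawn up with earlier results of these data known. Markers of cortical glutamatergic neurons varied strongly between libraries: the summed level of 6 such genes was 75.4 and 7.32 CPM in dorsal striatum replicates 1 and 2 and 275 and 130 CPM in accumbens replicates 1 and 2. Across all genes the edgeR quasi-likelihood test, with an adjusted p threshold of 0.05, called 186 of 14493 genes (1.28%), of which 144 (0.994%) were higher in accumbens. Unadjusted p-values under 0.05 were much more common than calls. A gene at an unadjusted edgeR p of 0.0493 had an adjusted p of 0.258. Counts of list members at that level are therefore descriptions, and the share over all genes is not given here. With scaling by library size alone the split was 73 higher and 172 lower, and with upper-quartile scaling 128 higher and 62 lower. The count was 109 without dorsal striatum replicate 1, 2790 without accumbens replicate 1 and 4464 without accumbens replicate 2.

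Because the genes of a receptor family resemble each other, the transcripts were compared to see whether reads of an abundant member could have been counted for a rare one. The longest identical run between Drd2 and Drd3 transcripts was 20 bases, and that between Drd1 and Drd5 was 23 bases. No pair of members shared any 31-base word. The windows of 90 bases around the longest run shared by Drd1 and Drd5 lie in coding exons, and they are shown because no other pair of members had a longer identical run. Capitals mark bases identical within the pair, read 5′ to 3′ along the transcript (GENCODE transcripts, build GRCm38, whose chromosomes are those of mm10).
Drd1 (chr13:54053840-54053929, minus strand, exon 2): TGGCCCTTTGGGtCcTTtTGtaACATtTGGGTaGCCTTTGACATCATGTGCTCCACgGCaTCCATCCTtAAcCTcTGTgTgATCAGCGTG
Drd5 (chr5:38319978-38320067, plus strand, exon 1): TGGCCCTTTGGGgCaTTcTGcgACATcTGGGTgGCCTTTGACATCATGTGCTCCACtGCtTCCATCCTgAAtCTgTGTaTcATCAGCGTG

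Within these windows 76 of 90 bases (84.4%) were identical between Drd1 and Drd5. Against all annotated transcripts, Drd2, Drd3 and Drd4 shared no 31-base word with any other gene, and Drd1 shared 11 of 3542 words. Drd5 shared 48.1% of its words with Gm26560, an annotated antisense gene that overlaps its only exon. Gm26560 has no row under that name in the count files, and no source used here gives the strand setting of the counting, so counts of Drd5 cannot be told apart from reads of this antisense gene.

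The accumbens differed from the dorsal striatum most clearly in Drd3. Drd3 was several-fold higher in accumbens and was the only member past the threshold. Drd1 and Drd2, the abundant receptors of the SPNs, did not pass the threshold, with fitted values slightly lower in accumbens. Drd5 was low in both regions and Drd4 was at the limit of detection. Of the 4 members that passed the filter on low counts, 1 was called (background 1.28% of all tested genes, and 0.994% for calls in that direction). The members were chosen with earlier results of these data known, so this count is a description.

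**Figure D1:**
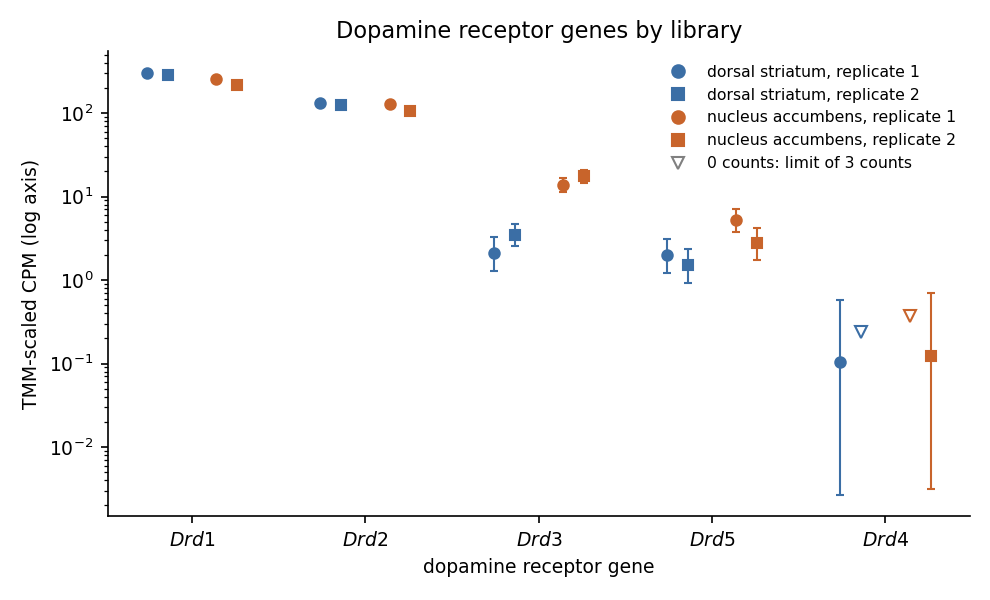
TMM-scaled CPM (log axis) of the 5 dopamine receptor genes in each library, with exact Poisson 95% intervals that cover counting error only, and open triangles at the limit of 3 counts where a library had 0 counts. Drd3 was at 13.8 and 17.5 CPM in accumbens against 2.10 and 3.50 CPM in dorsal striatum, while the points of Drd1 and Drd2 lie close together.

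Drd1 encodes the main stimulatory receptor of direct pathway neurons and lies on chromosome 13, 54051183 to 54055705, minus strand. It was at 299 and 285 CPM in dorsal striatum replicates 1 and 2 and at 257 and 219 CPM in accumbens replicates 1 and 2. Whether transcripts of the transgene, which uses the promoter of Drd1, added to these counts was not tested. Both accumbens libraries lay below both dorsal striatum libraries, as was the case for non-overlap in either direction in 51.2% of all tested genes. The log2 fold change, accumbens over dorsal striatum, was −0.29 (SE 0.13) with an edgeR adjusted p of 0.273, and the approximate 95% interval of the fold ran from 0.661 to 1.01. Under scaling by library size alone the log2 fold change was −0.47, and without accumbens replicate 2 it was −0.19.

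Drd2 encodes the main inhibitory receptor of indirect pathway neurons and lies on chromosome 9, 49340627 to 49408177, plus strand. Its levels were 130 and 126 CPM in dorsal striatum against 127 and 104 CPM in accumbens. The first accumbens library fell between the dorsal striatum libraries and the second below them, so the regions overlapped. With an edgeR adjusted p of 0.651, Drd2 missed the threshold (log2 fold change −0.15, SE 0.15), and the interval of the fold, 0.709 to 1.15, leaves room for a moderate difference in either direction. Without accumbens replicate 2 the log2 fold change was −0.02.

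Drd3, the other D2-class receptor of the striatum, lies on chromosome 16, 43754026 to 43822932, plus strand. The files held 20 and 44 counts of it in dorsal striatum against 112 and 140 counts in accumbens. These came to 2.10 and 3.50 CPM against 13.8 and 17.5 CPM, and the Poisson intervals of the regions did not overlap (1.28 to 4.70 CPM over the dorsal striatum libraries, 11.4 to 20.6 CPM over the accumbens libraries). The fitted fold was 5.53 (95% interval 2.81 to 10.9), a log2 fold change of 2.47 (SE 0.42, edgeR adjusted p = 0.0431).

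The call on Drd3 rested on having both dorsal striatum libraries. Without dorsal striatum replicate 1 the log2 fold change was 2.14 with an edgeR adjusted p of 0.218, and without dorsal striatum replicate 2 it was 2.89 with an adjusted p of 0.0636. Leaving out an accumbens library kept the call (log2 fold change 2.61 and 2.27), on the assumption that a single library varies as the dorsal striatum pair does. Of 5 tested markers of cortical glutamatergic neurons, 4 were also higher in accumbens without overlap (background 51.2% for non-overlap in either direction). The summed levels of these markers were 275 and 130 CPM against 75.4 and 7.32 CPM in dorsal striatum. Within each region Drd3 was lower in replicate 1 than in replicate 2, whereas the summed cortical markers were higher in replicate 1. The part of cortical tissue in the Drd3 result was not tested.

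Drd5, the second D1-class receptor, is a gene of 1 exon on chromosome 5, 38319367 to 38322518, plus strand. It had 19 and 19 counts in dorsal striatum against 42 and 22 counts in accumbens, or 1.99 and 1.51 CPM against 5.19 and 2.74 CPM. Accumbens replicate 1 was the high library, and the library values of the regions did not overlap (background 51.2% of all tested genes). The Poisson intervals did overlap, with 1.20 to 3.11 CPM in dorsal striatum replicate 1 and 1.72 to 4.16 CPM in accumbens replicate 2. The log2 fold change of 1.18 (SE 0.69) missed the threshold (edgeR adjusted p = 0.398), and the 95% interval of the fold ran from 0.753 to 6.80. Without accumbens replicate 2 the log2 fold change was 1.57 and the edgeR adjusted p 0.0329, and without accumbens replicate 1 it was 0.65. In accumbens, Drd5 and the summed cortical markers were both higher in replicate 1 than in replicate 2. In dorsal striatum the cortical sum was higher in replicate 1. There Drd5 had 19 counts in both replicates, so its CPM differed by library scaling alone. The part of cortical tissue in the Drd5 result was not tested.

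Markers of cholinergic interneurons, the cells known for Drd5 in the striatum, were looked at as well. Of 6 marker genes none was called by edgeR (0 at an unadjusted p under 0.05, background of calls 1.28%), and 5 had a negative fold change. Calls were rare among all genes, so the lack of calls here does not tell how many of these cells each region held. Slc5a7, the choline transporter gene, was at 47.0 and 47.2 CPM in dorsal striatum against 36.3 and 49.8 CPM in accumbens, and Tacr1, a receptor gene of these cells, at 29.5 and 35.4 against 20.8 and 29.9 CPM. The summed level of the 6 markers was 123 and 150 CPM in dorsal striatum against 104 and 131 CPM in accumbens.

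Drd4 (chromosome 7, 141292006 to 141296464, plus strand) was not detectable above the limit of 3 counts in any library. It had 1 and 0 counts in dorsal striatum against 0 and 1 counts in accumbens. In the libraries with 0 counts the limit of 3 counts lay at 0.239 CPM (dorsal striatum replicate 2) and 0.371 CPM (accumbens replicate 1). The exact Poisson 95% intervals reached 0.293 and 0.456 CPM in these libraries. With 1 count they reached 0.584 CPM in dorsal striatum replicate 1 and 0.695 CPM in accumbens replicate 2. Drd4 did not enter the test, and no fold is given.

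Divided by exon length, the order of the receptors was Drd1, Drd2, Drd3, Drd5 and Drd4 in both regions. In dorsal striatum Drd1 stood at 80.5 ± 2.80 CPM per kilobase of exon, Drd2 at 50.3 ± 1.21, Drd3 at 1.63 ± 0.579 and Drd5 at 0.556 ± 0.108 (SD, n = 2). In accumbens the levels per kilobase were 65.7 ± 7.37, 45.4 ± 6.15, 9.15 ± 1.50 and 1.26 ± 0.549 in the same order. Neighbouring genes in this order did not overlap between libraries of a region. The least secure step was that from Drd3 to Drd5 in dorsal striatum, where replicate 1 had 20 counts of Drd3 and 19 of Drd5, a ratio of 1.94 per kilobase of exon but 1.05 per kilobase of coding sequence.

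Set against other genes per kilobase, Drd1 and Drd2 ranked among the abundant transcripts of either region. Drd1 was above 98.4% of 12941 tested genes with a length in dorsal striatum and 97.4% in accumbens, and Drd2 above 96.5% and 95.5%. Drd3 moved through the ranks, from above 25.7% of genes in dorsal striatum to above 69.2% in accumbens. Drd5 was above 8.59% and 19.6%.

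As a share of the receptor family per kilobase, Drd1 made up 60.9% and 60.2% in dorsal striatum against 54.4% and 53.7% in accumbens. Drd2 made up 37.7% and 37.9% against 38.1% and 36.4%. Drd3 made up 0.904% and 1.57% in dorsal striatum against 6.21% and 9.06% in accumbens, and Drd5 0.466% and 0.367% against 1.26% and 0.774%. The share of Drd1 was thus lower in both accumbens libraries, that of Drd2 overlapped, and those of Drd3 and Drd5 were higher. The summed level of the family was 434 and 416 CPM in dorsal striatum against 403 and 344 CPM in accumbens. Shares depend on the length used: per kilobase of coding sequence, the mean share of Drd3 was 3.98% in accumbens and 0.618% in dorsal striatum.

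Ratios of receptors within a library do not depend on how libraries are scaled. Of 10 pairs of receptors, the 4 with Drd4 gave no ratio, and 6 were compared. With 2 libraries against 2, the smallest p that an exact two-sided permutation test can give is 0.3333, which every pair reached (also when adjusted over the 6 pairs), so no pair could pass the threshold. Pairs that share a receptor are not independent.

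The ratio of Drd1 to Drd2, the receptors of direct and indirect pathway neurons, differed little between the regions. Each library held 2.30 and 2.26 counts of Drd1 per count of Drd2 in dorsal striatum against 2.03 and 2.10 in accumbens. The ratio was lower in both accumbens libraries, by 9.46% on average (log2 difference −0.14, SE 0.03, over library means). The exact binomial 95% intervals overlapped between regions (2.15 to 2.46 in dorsal striatum replicate 1 and 1.88 to 2.19 in accumbens replicate 1), and these cover counting error only. Of all tested genes with counts in every library, 49.2% had a ratio to Drd2 that did not overlap between regions, and 79.3% differed from Drd2 by more than Drd1 did.

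Drd3 stood apart from both abundant receptors. There were 0.0161 and 0.0278 counts of Drd3 per count of Drd2 in dorsal striatum against 0.109 and 0.167 in accumbens, a 6.39-fold difference of the geometric means. Relative to Drd1 the values were 0.00701 and 0.0123 against 0.0538 and 0.0796, a 7.06-fold difference. The intervals of the 2 regions did not overlap for either pair. Against Drd2, 0.626% of genes showed a larger difference than Drd3, and against Drd1, 0.492% did (non-overlap with Drd1 occurred in 54.3% of genes).

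**Figure D2:**
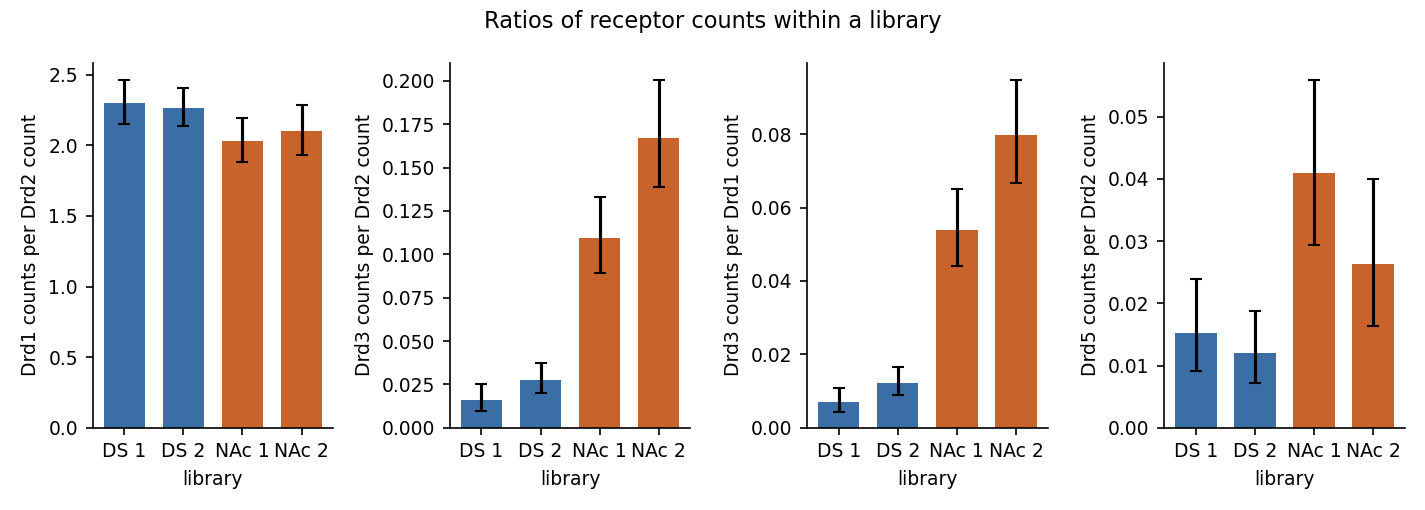
Ratio of the counts of receptor genes within each library (DS, dorsal striatum, blue; NAc, nucleus accumbens, orange; replicates 1 and 2), with exact binomial 95% intervals for counting error. Drd1 per Drd2 stays between 2.03 and 2.30, while Drd3 per Drd2 goes from at most 0.0278 in dorsal striatum to at least 0.109 in accumbens.

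Drd5 relative to Drd2 was 0.0153 and 0.0120 in dorsal striatum against 0.0410 and 0.0263 in accumbens, a 2.42-fold difference. The binomial intervals overlapped, with 0.00918 to 0.0240 in dorsal striatum replicate 1 and 0.0164 to 0.0401 in accumbens replicate 2. Relative to Drd1 the difference was 2.68-fold, and the intervals overlapped as well. The 2 rare receptors were also set against each other: Drd3 per Drd5 was 1.05 and 2.32 in dorsal striatum against 2.67 and 6.36 in accumbens. These library ratios did not overlap between regions, as was common for ratios to Drd2 (49.2% of genes) and to Drd1 (54.3%). The binomial intervals did overlap, with 1.32 to 4.20 in dorsal striatum replicate 2 and 1.86 to 3.90 in accumbens replicate 1. The log2 difference was 1.40 (SE 0.85), with log2 SDs of 0.80 in dorsal striatum and 0.89 in accumbens. Leaving out a library gave 0.77 to 2.03.

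Drd1 and Drd2 were also set against other genes of the same neurons. The ratio of Drd1 to each of 7 direct pathway markers had a lower mean in accumbens for all 7, without overlap for 6 (background 54.3%), and the median log2 difference was −0.75. For Pdyn, the prodynorphin gene, there were 4.61 and 3.68 counts of Drd1 per count in dorsal striatum against 1.37 and 1.35 in accumbens. For Tac1, the substance P precursor gene, the ratios were 3.59 and 3.93 against 2.05 and 2.43. Isl1, a transcription factor gene of these neurons, overlapped at 19.2 and 14.9 against 16.9 and 9.99.

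The ratio of Drd2 to 7 indirect pathway markers had a lower mean in accumbens for 6, without overlap for 5 (background 49.2%), with a median log2 difference of −0.53. Drd2 per count of Penk, the proenkephalin gene, was 0.223 and 0.169 in dorsal striatum against 0.117 and 0.136 in accumbens. Relative to Adora2a, the adenosine receptor gene of these neurons, the regions overlapped (1.37 and 1.07 against 0.818 and 1.10). The exception was Gpr52, an orphan receptor gene, with 5.65 and 5.37 in dorsal striatum against 8.39 and 3.80 in accumbens.

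The direct and indirect pathway markers themselves mostly had positive fold changes in accumbens, unlike the genes shared by all SPNs described below. All 7 direct pathway markers had a positive log2 fold change (median 0.47), and Pdyn was called (log2 fold change 1.29, SE 0.16, edgeR adjusted p = 0.0233). Of the indirect pathway markers 6 of 7 were positive (median 0.37), with 0 called by edgeR (background 1.28%) and 4 at an unadjusted p under 0.05. The median over all tested genes was 0.02. Penk was at 584 and 743 CPM in dorsal striatum against 1083 and 768 CPM in accumbens, and Grik3, a kainate receptor gene, at 127 and 124 against 160 and 165 CPM. Penk was called without accumbens replicate 2 (log2 fold change 0.70, edgeR adjusted p = 0.00114) and with no low-count filter (edgeR adjusted p = 0.0106), and its log2 fold change was 0.21 without accumbens replicate 1.

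Against 7 genes shared by all SPNs the ratio of Drd1 was lower in accumbens for 5 and higher for 2, with a median log2 difference of −0.13. That of Drd2 was lower for 3 and higher for 4 (median 0.01). Drd1 relative to Ppp1r1b, the DARPP-32 gene, was 0.300 and 0.227 in dorsal striatum against 0.238 and 0.231 in accumbens. Relative to the phosphodiesterase gene Pde10a, Drd1 was 0.150 and 0.146 against 0.159 and 0.175. Of these 7 genes 0 were called by edgeR (background 1.28%), with 2 at an unadjusted p under 0.05. In contrast to the pathway markers, 6 had a negative log2 fold change (median −0.17). The levels of 5 were lower in accumbens without overlap (background 51.2% for non-overlap in either direction).

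**Figure D3:**
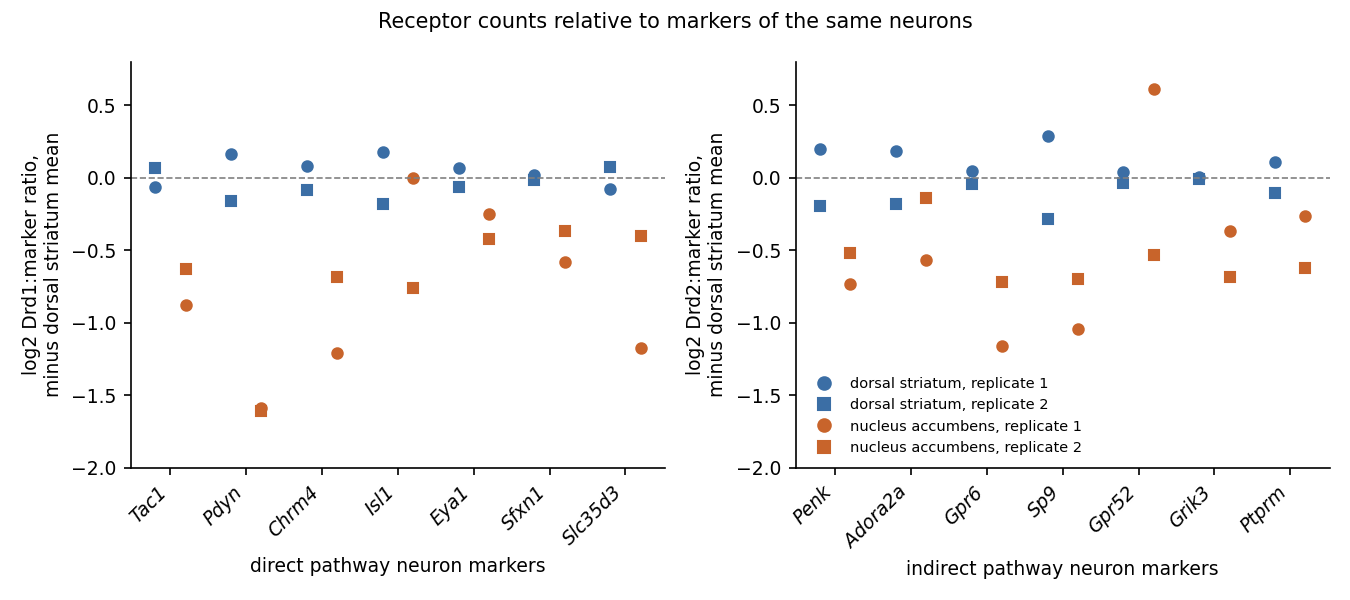
Log2 ratio of receptor counts to counts of each marker gene within a library, minus the mean of the dorsal striatum libraries, for Drd1 with direct pathway markers (left) and Drd2 with indirect pathway markers (right). Accumbens points (orange) lie below the dorsal striatum points (blue) for 6 of 7 direct and 5 of 7 indirect markers, and Gpr52 in accumbens replicate 1 lies above.

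Drd3 was higher in accumbens relative to each of the 7 direct pathway markers, with a median log2 difference of 2.07. This follows from the log2 fold changes already given, 2.47 for Drd3 and at most 1.29 for a marker, and is no separate result. Relative to Pdyn, the marker with the largest fold change of its own, Drd3 was 0.0323 and 0.0451 in dorsal striatum against 0.0737 and 0.108 in accumbens.

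By a nearest-pattern rule over the 4 libraries (Euclidean distance between centred log2 CPM, among 11706 genes with a mean of at least 2 CPM), the genes most like Drd3 were Dlk1 (distance 0.22), Trhr (0.33) and Cartpt (0.45). Dlk1, an imprinted gene of the Notch ligand type, was at 47.1 and 85.7 CPM in dorsal striatum against 286 and 328 CPM in accumbens. Trhr, the thyrotropin-releasing hormone receptor gene, was at 2.10 and 3.74 against 12.7 and 13.6 CPM, with a log2 fold change of 2.16 that missed the threshold (edgeR adjusted p = 0.0610). Cartpt, the CART peptide gene, was at 2.31 and 3.58 against 21.4 and 22.0 CPM.

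Nearest to Drd2 were Gprin3 (0.02), Pmepa1 (0.02) and Cdh11 (0.03), and nearest to Drd1 were Rbm39 (0.02), Cers5 (0.03) and Zfp334 (0.04). For Drd5 they were Kdelr1, Ssh3 and Scfd2 (0.07 to 0.09). With 4 libraries and 11706 candidates, genes close to any receptor, Drd3 included, are given as a description of the pattern. The neighbours of Drd3 were the most distant (0.22 to 0.45), and Dlk1 and Cartpt were also on the list of accumbens markers.

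The rest of the pathway was measured in the same libraries, from 6 lists drawn up with earlier results of these data known. Genes of dopamine synthesis, storage and uptake act mainly in midbrain neurons, whose axons but not cell bodies lie in the striatum. They were low: Th, the tyrosine hydroxylase gene, was at 3.98 and 5.96 CPM in dorsal striatum against 7.29 and 4.24 CPM in accumbens, and Slc6a3, the dopamine transporter gene, was at most 0.624 CPM in any library. Of the 3 tested members Ddc, the decarboxylase gene, stood at 7.45 and 8.51 against 4.57 and 10.7 CPM and Slc18a2, the vesicular transporter gene, at 6.82 and 10.3 against 5.19 and 8.86 CPM. All 3 overlapped between regions, and 0 were called by edgeR (0 at an unadjusted p under 0.05, background of calls 1.28%).

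Maoa and Maob encode monoamine oxidases, enzymes of dopamine breakdown. Of these 2 genes 0 were called by edgeR (0 at an unadjusted p under 0.05, background of calls 1.28%). Maoa was at 25.5 and 26.6 CPM in dorsal striatum against 14.1 and 33.4 CPM in accumbens, with accumbens replicate 1 low. Maob was at 20.6 and 15.1 against 9.27 and 14.2 CPM, lower in accumbens without overlap (background 51.2% for non-overlap in either direction). The log2 fold change of Maob was −0.60 (edgeR adjusted p = 0.384). Without accumbens replicate 2 both genes were called, Maoa with a log2 fold change of −0.89 (edgeR adjusted p = 0.00773) and Maob with −0.94 (edgeR adjusted p = 0.0160). Without accumbens replicate 1 the log2 fold change of Maoa was 0.36.

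Of 9 G protein subunit genes 0 were called by edgeR (3 at an unadjusted p under 0.05, background of calls 1.28%), and the median log2 fold change was 0.10. Gnal, which encodes the Golf subunit that couples Drd1 to adenylyl cyclase in striatum, was at 1239 and 1182 CPM in dorsal striatum against 1603 and 1338 CPM in accumbens (edgeR adjusted p = 0.256). Gnao1, an inhibitory subunit used by Drd2, was at 1271 and 1279 against 1118 and 1183 CPM (edgeR adjusted p = 0.489). The values of Gnal lay above and those of Gnao1 below in accumbens without overlap, and regions did not overlap for 5 of the 9 subunit genes in all (background 51.2%). Gnal was called without accumbens replicate 2 (log2 fold change 0.40, edgeR adjusted p = 0.0273) and was at 0.14 without accumbens replicate 1.

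Of 7 genes of the cAMP cascade 0 were called by edgeR (3 at an unadjusted p under 0.05, background of calls 1.28%), and 6 had a negative fold change (median −0.21). Pde10a, which breaks down cAMP in SPNs, was at 1990 and 1957 CPM in dorsal striatum against 1615 and 1255 CPM in accumbens (log2 fold change −0.46, SE 0.13, edgeR adjusted p = 0.126). It passed the threshold with no low-count filter (edgeR adjusted p = 0.00675), with DESeq2 (adjusted p = 0.0124), with a replicate block (edgeR adjusted p = 0.0360) and without accumbens replicate 1 (log2 fold change −0.66, edgeR adjusted p = 0.00289). Without accumbens replicate 2 the value was −0.29. Ppp1r1b overlapped between regions, at 998 and 1256 against 1079 and 947 CPM.

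Genes that end receptor signalling held the calls of the pathway outside the receptors, 2 of 11, both lower in accumbens (background 0.290% of all tested genes for calls in that direction), with a list median of −0.16. Rgs9 encodes the striatal regulator that speeds the shut-off of Gi and Go signals of D2-class receptors, and Rgs4 a related regulator. Rgs9 was at 1587 and 1312 CPM in dorsal striatum against 658 and 662 CPM in accumbens (log2 fold change −1.13, SE 0.13, edgeR adjusted p = 0.0233). Rgs4 was at 618 and 572 against 314 and 234 CPM (−1.12, SE 0.16, edgeR adjusted p = 0.0278).

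Among 8 genes of proteins that bind dopamine receptors 0 were called by edgeR (2 at an unadjusted p under 0.05, background of calls 1.28%). Their median log2 fold change was 0.02. Epb41l1 (counted under its older symbol), the cytoskeletal protein 4.1N gene, was at 596 and 646 CPM in dorsal striatum against 589 and 662 CPM in accumbens. Dlg4, the PSD-95 gene, was at 333 and 381 against 527 and 379 CPM, with accumbens replicate 1 high. Without accumbens replicate 2 Dlg4 was called (log2 fold change 0.56, edgeR adjusted p = 0.00529), and without accumbens replicate 1 it was at 0.09.

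**Figure D4:**
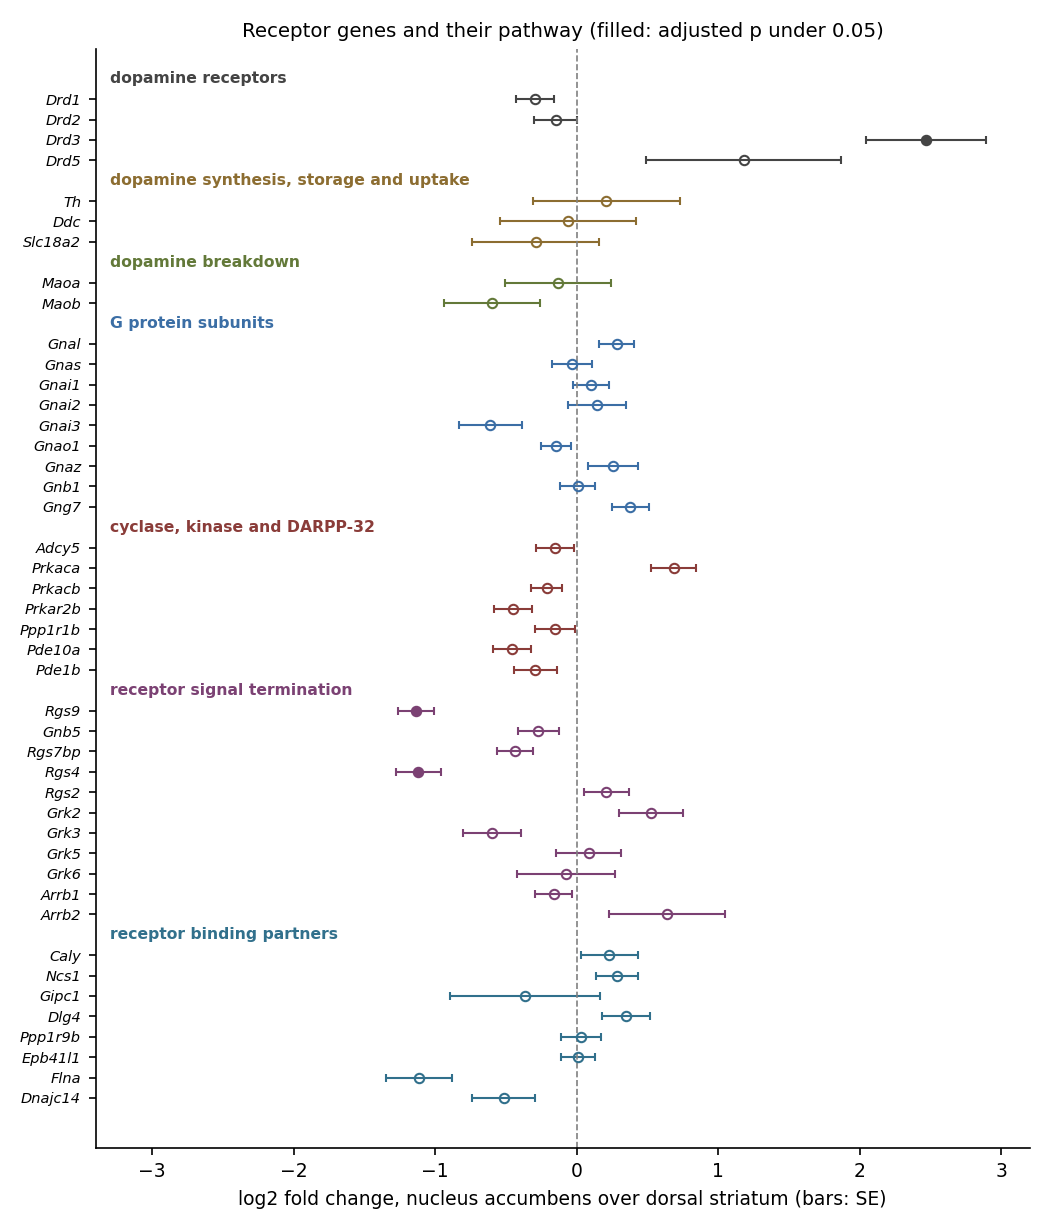
Log2 fold change (accumbens over dorsal striatum) with SE from the edgeR fit for the receptor genes and the tested members of 6 pathway lists; filled points passed the threshold. Drd3 at 2.47 is the filled point on the right, Rgs9 at −1.13 and Rgs4 at −1.12 are those on the left, and Drd1 and Drd2 lie near 0.

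The row of Rpl10a, whose coding sequence is part of the transgene, holds reads of the endogenous gene and may hold those of the fusion. It was at 56.5 and 68.8 CPM in dorsal striatum against 124 and 130 CPM in accumbens, a log2 fold change of 1.01 (SE 0.16, edgeR adjusted p = 0.0380), whereas Drd1 had a negative one. The edgeR adjusted p was 0.149 without dorsal striatum replicate 1, and it was 0.0796 with an offset for transcript length. Ribosomal protein genes have near-identical pseudogenes, so this count is uncertain, and the share of the fusion in it was not tested.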

How the data were processed

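For each library the authors deposited a file of unnormalized counts by gene symbol. The submitters' processing notes name STAR 2.0.0e, HTSeq and the build mm10. Annotation and strand setting were not given in the sources used here. Rows that name no gene (44.4% to 49.7% of a file's total) stayed out of library sizes and tests.

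Counts were filtered with filterByExpr, scaled by TMM and tested with edgeR 4.0.16 (R 4.3.3; quasi-likelihood test with legacy=TRUE, region as the only term, two-sided, Benjamini-Hochberg over 14493 genes, threshold 0.05). The SE is the absolute log2 fold change over the root of F, and 95% intervals use the fit's degrees of freedom. The procedure was tested on simulated data. Alternatives used DESeq2 1.42.0 and limma 3.58.1 among others. Exon lengths and coordinates came from GENCODE M21 (GRCm38). Poisson and Clopper-Pearson intervals and the floor of 3 counts cover counting error only, since reads carry no molecular identifiers.

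The members and lists were chosen with earlier results of these data known. The rule for named genes took all receptors, from each list up to 4 genes past the threshold (or, with none, the 2 with the highest mean CPM), and the 3 genes nearest in pattern to each tested receptor. Glial and endothelial lists are given as counts: Gja1 was the one astrocyte gene called (log2 fold change 1.01, edgeR adjusted p = 0.0491, and 0.0529 to 0.0615 under 3 other scalings), and 0 of 4 oligodendrocyte, 4 microglia and 3 endothelial genes tested were called by edgeR, with 1 of each at an unadjusted p under 0.05. Additional list members were named as examples after their values were seen. One further gene of the breakdown list and one pair of sequence windows are not reported here.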

Additional observations from a re-analysis of the deposited data

How the results depend on the processing

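Drd1 and Drd2 kept their direction and stayed short of the threshold under all 16 alternatives, and Drd3 kept its direction under all 16 and the threshold under each of the 11 with an adjusted p that left out no library (edgeR and limma adjusted p up to 0.0474). DESeq2 gave no adjusted p for Drd3 or Drd5, whose mean counts fell under its own filter. Leaving out a library gave a log2 fold change of 2.14 to 2.89 for Drd3 and of 0.65 to 1.57 for Drd5. Drd4 had too few counts for any setting to give a fold. The count of 186 called genes was 1203 without the low-count filter, 307 with the stricter filter, 371 with legacy=FALSE, 933 with DESeq2, 431 with limma-voom, and 109 to 4464 with a library left out. With a replicate block it was 843, and Drd3 was at 2.50. The differences between replicates hardly correlated between the regions (0.03 over all tested genes). This value cannot decide whether equal replicate numbers share an animal or a batch, and the labels do not say. Of the calls 77.4% were higher in accumbens, 67.4% under upper-quartile scaling and 29.8% under library size alone, where the median over all genes went from 0.02 to −0.15.

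With 0.5 added to each count the log2 differences of receptor ratios moved by less than the replicate SD. With a library left out the log2 difference of Drd3 to Drd5 ran from 0.77 to 2.03 and that of Drd2 to Drd3 from −3.07 to −2.28. Mean family shares per kilobase of coding sequence, an alternative chosen after seeing the data, were 63.9% and 68.7% for Drd1, 31.1% and 30.3% for Drd2 and 3.98% and 0.618% for Drd3 in accumbens and dorsal striatum; with the longest transcript the share of Drd2 in dorsal striatum was 37.5%. Sign changes occurred in genes whose log2 fold change in the main fit lay between −0.29 (Slc18a2) and 0.01 (Epb41l1). Epb41l1 was at −0.043 with upper-quartile scaling, −0.16 with library size alone, −0.0043 without the 50 most abundant genes, and −0.080 to 0.089 with a library left out. With a library left out, log2 fold changes spanned −0.81 to 0.42 for Ddc, −0.89 to 0.36 for Maoa, −0.33 to 0.016 for Ppp1r1b, −0.74 to 0.040 for Slc18a2 and −0.38 to 0.077 for Slc5a7. The cause of these changes was not tested.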
